A study of Mus musculus with 75 samples.

Results

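The Notch genes described here are the receptors Notch1, Notch2, Notch3 and Notch4, the ligands Dll1, Dll3, Jag1 and Jag2, and the transcriptional targets Hes1 and Hes5. They were found by gene symbol, or by Ensembl identifier turned into a symbol, and all 10 were present in each of 3 RNA-seq count tables of 52535, 52535 and 52636 entries. The study asked how retinoic acid (RA), its receptors and RA-responsive enhancers direct the early differentiation of E14 cells, a mouse embryonic stem cell (ESC) line derived from the blastocyst. The cells of every group below had LIF and both kinase inhibitors withdrawn and received 2 µM RA for 24 h. The first table holds cells lacking the RA receptor gene Rara (Rarα-KO), the retinoid X receptor gene Rxra (Rxrα-KO) or both (RARX-DKO), and wild-type cells, WT (RARX), with 2 libraries per group. The second holds cells overexpressing Rarα (Rarα-OE) or Rxrα (Rxrα-OE) and the controls, V-OE (the labels do not spell out V), again 2 libraries per group. The enhancer table holds cells that lack an enhancer named Cyp26-E1 or Cyp26-E2 (Cyp26-E1-KO and Cyp26-E2-KO) and their wild type, WT (Cyp26), with 3 libraries per group.

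The Notch pathway passes a signal between touching cells. A ligand of the Delta or Jagged family on one cell binds a Notch receptor on its neighbour, the receptor is cut by an ADAM protease and then by gamma-secretase, and the freed intracellular domain joins the DNA-binding protein RBPJ to switch on targets such as the Hes repressors. In mouse ESCs this signalling is largely dispensable for self-renewal and is known for biasing cells that leave pluripotency towards the neural lineage.

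Totals were 7408691 to 13052102 counts per library in the knockout table, 7835519 to 11453063 counts in the overexpression table and 28397794 to 33601996 counts in the enhancer table. The submitters call the replicates biological, but the labels do not say whether they were separate cultures or clones, nor how the genes were deleted or overexpressed, so the p-values measure only the spread between these samples. Rara stood at 4.86 ± 0.70 CPM (counts scaled to a common library size, with SD, n = 2) in Rarα-KO and 6.05 ± 0.68 CPM in RARX-DKO, against 104 ± 6.03 CPM in WT (RARX). Rxra stood at 17.2 ± 1.57 CPM in Rxrα-KO and at 13.6 and 27.6 CPM in the RARX-DKO libraries, against 42.1 ± 5.49 CPM in WT (RARX), and the RARX-DKO difference missed the threshold (adjusted p = 0.0654, edgeR's quasi-likelihood test). Overexpression brought Rara to 108 ± 4.58 CPM in Rarα-OE and Rxra to 203 ± 1.58 CPM in Rxrα-OE, against 52.0 ± 0.59 and 44.3 ± 1.93 CPM in V-OE. The columns of the enhancer table carry codes whose match to the deletions is unsure. Cyp26a1, which encodes an RA-degrading enzyme, had 49.5 ± 13.7 CPM in the libraries matched to Cyp26-E1-KO and 380 ± 15.2 CPM in those matched to Cyp26-E2-KO, against 377 ± 8.80 CPM in WT (Cyp26). It had 210 ± 98.2 CPM in Rarα-KO, 77.1 ± 17.7 CPM in Rxrα-KO and 26.5 ± 1.17 CPM in RARX-DKO, against 538 ± 17.2 CPM in WT (RARX). The Rarα-KO difference missed the threshold (adjusted p = 0.0711, edgeR). In Rarα-OE and Rxrα-OE it had 535 ± 8.82 and 1092 ± 5.66 CPM, against 185 ± 1.19 CPM in V-OE. Rara in Rarα-OE thus stood near its level in WT (RARX), with no test across tables. Replicate 2 of Cyp26-E1-KO stood apart from the other libraries of its group: the SD over genes of its log2 CPM difference from them was 0.60, against 0.50 and 0.49 for replicates 1 and 3. None of the 8 ESC markers (Pou5f1, Sox2, Nanog and others) was at 0 in any group, with sums of 2310 to 8326 CPM per library, but neither was any of 8 extraembryonic endoderm markers (Gata4, Gata6, Sox17 and others), with sums of 126 to 933 CPM, so detection of these markers does not by itself tell the cell types apart.

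Per kilobase of exon, Hes1, a repressor that oscillates in ESCs, was the most abundant of the 10 genes in every control. It reached 11.0 ± 3.19 CPM per kb in WT (RARX), 14.8 ± 0.08 in V-OE and 10.2 ± 0.44 in WT (Cyp26). Notch3 came next in each, at 10.9 ± 1.30, 7.53 ± 0.15 and 6.06 ± 0.39 CPM per kb in the same order, and its range overlapped that of Hes1 in WT (RARX). The order below it differed between controls. In WT (RARX) Jag2, Notch2, Notch1, Notch4, Dll1, Dll3 and Jag1 followed, from 5.48 ± 0.50 down to 0.95 ± 0.08 CPM per kb, and the libraries of Notch4 and Dll1 overlapped. In V-OE Notch4 followed Notch3 at 7.48 ± 0.32 CPM per kb, within the spread of Notch3. In WT (Cyp26) the neighbours Notch3 and Notch2, Jag2 and Dll1, Notch1 and Jag1, Jag1 and Notch4, and Notch4 and Dll3 all overlapped. Hes5, a target used as a readout of Notch activity in neural progenitors, was last everywhere with 0 to 5 counts per library. A floor of 3 counts corresponds to between 0.0878 and 0.408 CPM at these depths, and Hes5 passed the filter on low counts in no table, so 9 of the 10 genes were tested in each.

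**Figure D1:**
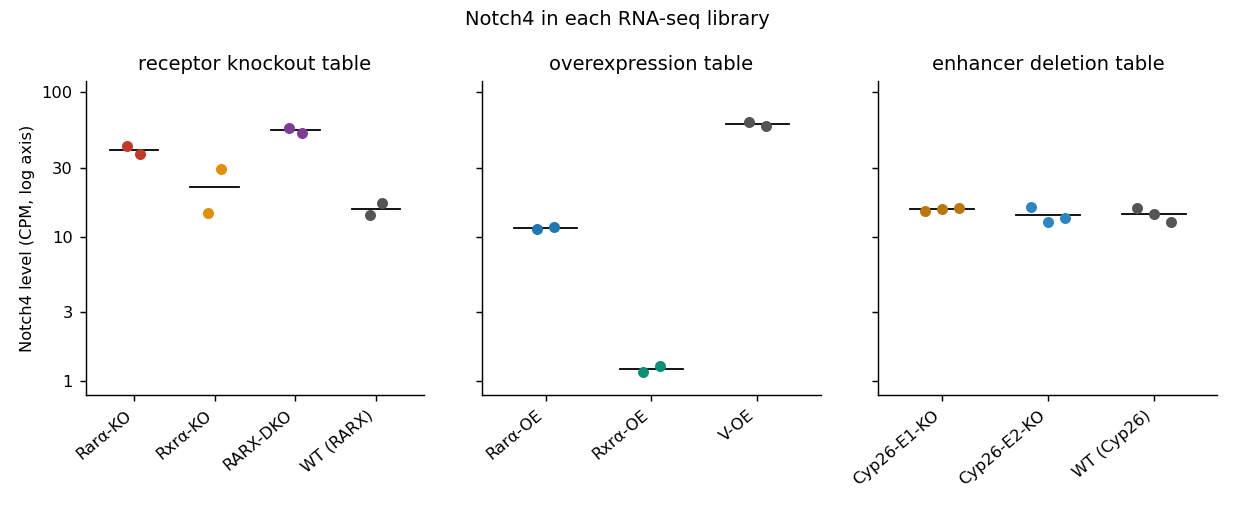
Notch4 level in each of the 23 RNA-seq libraries (CPM, log axis), by table and group. Points are libraries and lines are group means, which run from 1.21 CPM in Rxrα-OE to 60.3 CPM in V-OE.

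Notch4, the receptor best known from blood vessel endothelium, moved most. It was lower in both overexpressing lines and higher in Rarα-KO and RARX-DKO. It lies on mouse chromosome 17 (chr17:34564268-34588503, plus strand, mm10) and no annotated exon of another gene overlaps its exons. Notch4 had 11.4 and 11.7 CPM in Rarα-OE, against 62.1 and 58.4 CPM in V-OE. In Rxrα-OE it had 1.16 and 1.27 CPM, which are 10 and 15 counts, against 514 and 573 counts in V-OE. The groups did not overlap, and Rxrα-OE lay below Rarα-OE in every library. The log2 fold changes were -2.39 ± 0.12 (SE) for Rarα-OE (adjusted p = 2.70e-23, edgeR) and -5.61 ± 0.17 for Rxrα-OE (adjusted p = 6.55e-34), both against V-OE. Rxrα-OE was also lower than Rarα-OE itself, by a log2 fold change of -3.22 ± 0.23 (adjusted p = 5.49e-18). Counted from the most negative log2 fold change over 16914 genes, Notch4 ranked 26 in Rarα-OE and 14 in Rxrα-OE. In bulk RNA, fewer cells of a type and less RNA per cell cannot be told apart.

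In the knockout table Notch4 had 42.5 and 37.3 CPM in Rarα-KO, 14.7 and 29.4 CPM in Rxrα-KO and 56.9 and 52.8 CPM in RARX-DKO, against 14.1 and 17.2 CPM in WT (RARX). Both Rarα-KO and RARX-DKO lay wholly above the wild type, while 1 Rxrα-KO library lay within its range and the other above it. The log2 fold change was 1.35 ± 0.26 in Rarα-KO (adjusted p = 0.0382, edgeR) and 1.81 ± 0.26 in RARX-DKO (adjusted p = 0.00457), ranks 263 and 143 from the highest of 16445 genes. All 3 comparisons share the WT (RARX) libraries. The Rarα-KO call rested on all 4 libraries: without WT (RARX) replicate 1 or 2 the adjusted p was 0.317 or 0.435, and without Rarα-KO replicate 1 or 2 it was 0.239 or 0.150, with log2 fold changes of 1.22 to 1.50. The RARX-DKO call was lost without WT (RARX) replicate 1 or replicate 2, at log2 fold changes of 1.68 and 1.96. Those 2 fits also called fewer of all genes. In Rxrα-KO the log2 fold change of 0.49 ± 0.26 did not pass (adjusted p = 0.397). It was decided by 1 library, being 0.91 without Rxrα-KO replicate 1 (adjusted p = 0.0435) and -0.08 without replicate 2 (adjusted p = 0.924). RARX-DKO exceeded Rxrα-KO by 1.31 ± 0.26 (adjusted p = 0.0178), a call lost without RARX-DKO replicate 1 (adjusted p = 0.0796) and with only the libraries of these 2 groups fitted (adjusted p = 0.106). Rxrα-KO lay below Rarα-KO by -0.86 ± 0.26 without passing (adjusted p = 0.0749). That difference passed with scaling by library totals only (-0.96, adjusted p = 0.0451), with DESeq2 (-0.86, adjusted p = 0.0327), with no filter on low counts (-0.88, adjusted p = 6.54e-04) and without Rxrα-KO replicate 2 (-1.42, adjusted p = 0.0110). Both RARX-DKO libraries lay above both Rarα-KO libraries, but that difference was within 2 SE of 0 (adjusted p = 1).

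In the enhancer deletions Notch4 stood at 15.0, 15.6 and 15.7 CPM in Cyp26-E1-KO and 16.1, 12.7 and 13.6 CPM in Cyp26-E2-KO, against 15.8, 14.4 and 12.7 CPM in WT (Cyp26). The ranges overlapped, with 1 Cyp26-E2-KO library above the highest control, and both log2 fold changes were within 2 SE of 0. Side by side, the controls of the 3 tables held 15.7 ± 2.20 CPM in WT (RARX), 60.3 ± 2.58 CPM in V-OE and 14.3 ± 1.52 CPM in WT (Cyp26), and no test was run across tables.

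Cell-type markers also changed in the overexpression table. Beside their counts, 28.6% of all genes passed in Rarα-OE and 60.2% in Rxrα-OE, both against V-OE. The summed level of the 8 ESC markers was 7208 to 7219 CPM in Rarα-OE and 2749 to 2771 CPM in Rxrα-OE, against 8172 to 8326 CPM in V-OE. Of these 8, 2 rose and 6 fell in Rarα-OE, and 7 fell and none rose in Rxrα-OE. All 8 extraembryonic endoderm markers rose in both lines, to sums of 666 to 678 CPM in Rarα-OE and 931 to 933 CPM in Rxrα-OE, against 179 to 183 CPM in V-OE. The 8 endothelial markers summed to 155 to 165 CPM in Rarα-OE and 75.0 to 76.9 CPM in Rxrα-OE, against 191 to 199 CPM in V-OE, with Emcn at 0 in all 6 libraries. Most of that sum was Pecam1, a surface protein that ESCs also express, at 148 ± 5.67 CPM in Rarα-OE and 63.5 ± 1.78 CPM in Rxrα-OE, against 183 ± 6.08 CPM in V-OE. Of the 5 endothelial markers tested, 1 fell in Rarα-OE, and 1 rose and 2 fell in Rxrα-OE. The 8 neural progenitor markers summed to 37.4 to 41.8 CPM in Rarα-OE and to 25.4 and 25.95 CPM in the Rxrα-OE libraries, against 70.8 to 81.0 CPM in V-OE, with Neurog2 at 0 in Rarα-OE and V-OE and Zic1 at 0 in V-OE. Of the 4 tested, 1 fell in Rarα-OE, and 2 rose and 2 fell in Rxrα-OE. Most of the sum in V-OE was Tubb3, a neuronal tubulin, at 20.6 ± 3.52 CPM in Rarα-OE and 2.26 ± 1.23 CPM in Rxrα-OE, against 56.2 ± 2.72 CPM in V-OE, while Nes, an intermediate filament protein of neural progenitors, rose in Rxrα-OE to 18.4 ± 1.14 CPM, against 11.3 ± 2.52 CPM in V-OE. The 8 fibroblast markers summed to 59.4 to 63.3 CPM in Rarα-OE and 128 to 132 CPM in Rxrα-OE, against 33.9 to 34.1 CPM in V-OE, with Lum and Postn at 0 in all 6 libraries. Of the 3 fibroblast markers tested, 2 rose in Rarα-OE, and 2 rose and 1 fell in Rxrα-OE. The 8 mesoderm and primitive streak markers summed to 26.7 to 29.2 CPM in Rarα-OE and 16.8 to 17.2 CPM in Rxrα-OE. V-OE had 22.5 to 22.6 CPM. Of the 6 tested, 1 rose in Rarα-OE, and 1 rose and 1 fell in Rxrα-OE.

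Markers changed in the knockout table too. Of all genes, 0.645% passed in Rarα-KO, 2.47% in Rxrα-KO and 2.24% in RARX-DKO, each against WT (RARX). The extraembryonic endoderm markers summed to 146 to 187 CPM in Rarα-KO, 331 to 347 CPM in Rxrα-KO and 126 to 149 CPM in RARX-DKO, against 232 to 258 CPM in WT (RARX). Of these 8 markers, 6 fell in RARX-DKO and 1 in Rarα-KO. The ESC markers there summed to 6737 to 8020 CPM in Rarα-KO, 6217 to 6349 CPM in Rxrα-KO and 6803 to 7549 CPM in RARX-DKO, against 5612 to 5699 CPM in WT (RARX). Of these 8, 1 rose in Rarα-KO, 2 in Rxrα-KO and 2 in RARX-DKO, and none fell. The neural progenitor markers summed to 60.9 to 66.2 CPM in Rarα-KO, 47.8 to 73.2 CPM in Rxrα-KO and 69.5 to 96.3 CPM in RARX-DKO, against 43.0 to 47.8 CPM in WT (RARX). Of the 4 tested, only Tubb3 passed, in RARX-DKO, where it rose to 55.3 ± 6.40 CPM, against 24.4 ± 3.14 CPM in WT (RARX). The fibroblast markers summed to 35.3 to 44.1 CPM in Rarα-KO, 12.4 to 17.0 CPM in Rxrα-KO and 24.2 to 38.2 CPM in RARX-DKO, against 35.3 to 40.5 CPM in WT (RARX), with Col3a1 and Postn at 0 in all 8 libraries. Of the 3 tested, Pdgfrb, a growth factor receptor, fell in Rxrα-KO to 9.05 ± 2.30 CPM, against 31.3 ± 3.57 CPM in WT (RARX), and 1 rose in RARX-DKO. The endothelial markers summed to 176 to 215 CPM in Rarα-KO, 171 to 182 CPM in Rxrα-KO and 181 to 224 CPM in RARX-DKO, against 164 to 182 CPM in WT (RARX). Of the 5 tested, 1 rose in Rxrα-KO, and none passed in Rarα-KO or RARX-DKO. The mesoderm and primitive streak markers summed to 19.3 to 19.9 CPM in Rarα-KO and 16.7 to 33.4 CPM in Rxrα-KO. RARX-DKO had 11.8 to 14.5 CPM and WT (RARX) 15.13 to 18.15 CPM. Of the 5 tested, none passed in any of the mutants. The part of these markers in the Notch results was not tested.

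Dll1, a Delta ligand whose gene lies on the minus strand of the same chromosome (chr17:15367354-15376872), was also lower in both overexpressing lines. It had 6.73 and 5.13 CPM in Rarα-OE, against 12.7 and 11.6 CPM in V-OE. In Rxrα-OE it had 0.35 and 1.44 CPM, or 3 and 17 counts. No library of either line reached the controls, and Rxrα-OE lay below Rarα-OE. The log2 fold change was -1.02 ± 0.23 in Rarα-OE (adjusted p = 3.57e-04, edgeR) and -3.63 ± 0.30 in Rxrα-OE (adjusted p = 3.20e-15), both against V-OE. Between the lines it was -2.61 ± 0.34 (adjusted p = 5.23e-09). Without Rxrα-OE replicate 2, which leaves the library with 3 counts, the Rxrα-OE values were -5.07 against V-OE and -4.06 against Rarα-OE. An antisense gene, A930024N18Rik, shares 867 exonic bases with Dll1. It had 11 to 21 counts in Rarα-OE and 2 to 3 in Rxrα-OE, against 21 to 30 in V-OE. Without strand information, reads from the shared bases cannot be told apart, out of 4219 exonic bases of Dll1. Dll1 passed in neither of the other tables. It had 8.99 and 7.86 CPM in Rarα-KO, 7.94 and 9.15 CPM in Rxrα-KO and 6.93 and 12.6 CPM in RARX-DKO, against 7.00 and 8.45 CPM in WT (RARX), and 11.8 to 13.6 CPM in Cyp26-E1-KO and 11.8 to 13.2 CPM in Cyp26-E2-KO, against 10.8 to 13.1 CPM in WT (Cyp26).

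The promoters of Notch4 and Dll1 are shown because these genes had the largest falls under overexpression. Each window runs from 250 bases before to 50 bases after a RefSeq start (GRCm38.p6, the assembly behind mm10), chr17:34564045-34564344 on the plus strand for Notch4 and chr17:15375774-15376073 on the minus strand for the first of the 2 Dll1 windows. The Dll1 window shown lies inside the annotated gene. The other Dll1 window, chr17:15376883-15377182, lies just beyond its annotated 5' end and held no match. Capitals mark the retinoid receptor core motif AGGTCA, searched on both strands.
Notch4: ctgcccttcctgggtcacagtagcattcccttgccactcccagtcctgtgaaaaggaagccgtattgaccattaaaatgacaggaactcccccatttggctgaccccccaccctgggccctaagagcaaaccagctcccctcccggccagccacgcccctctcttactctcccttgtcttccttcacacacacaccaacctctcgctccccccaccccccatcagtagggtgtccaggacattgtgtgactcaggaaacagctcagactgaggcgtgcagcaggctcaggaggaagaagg
Dll1: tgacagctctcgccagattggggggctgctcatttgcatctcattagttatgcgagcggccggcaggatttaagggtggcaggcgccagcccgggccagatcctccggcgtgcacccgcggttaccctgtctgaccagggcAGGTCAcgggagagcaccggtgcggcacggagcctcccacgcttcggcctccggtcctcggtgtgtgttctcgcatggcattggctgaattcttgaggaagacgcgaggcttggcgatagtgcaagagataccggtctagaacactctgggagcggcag
RefSeq windows were matched for 9 of the 10 genes, 10 windows in all, Hes1 not among them. The other motifs searched on both strands were the RA response element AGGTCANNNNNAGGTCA, which contains the core motif at each end, and the RBPJ core TGGGAA. The retinoid core motif was found in the Dll1 window above, 109 bases before the start, and in none of the other 9 windows, against 16.3% of 32851 promoter windows of the same length. The RA response element was in none of the 10, against 0.00913% of all windows. The RBPJ core was found in Hes5 alone, on the minus strand 226 bases and on the plus strand 82 bases before the start, against 25.6% of all windows. These matches describe the letters of the windows only.

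**Figure D2:**
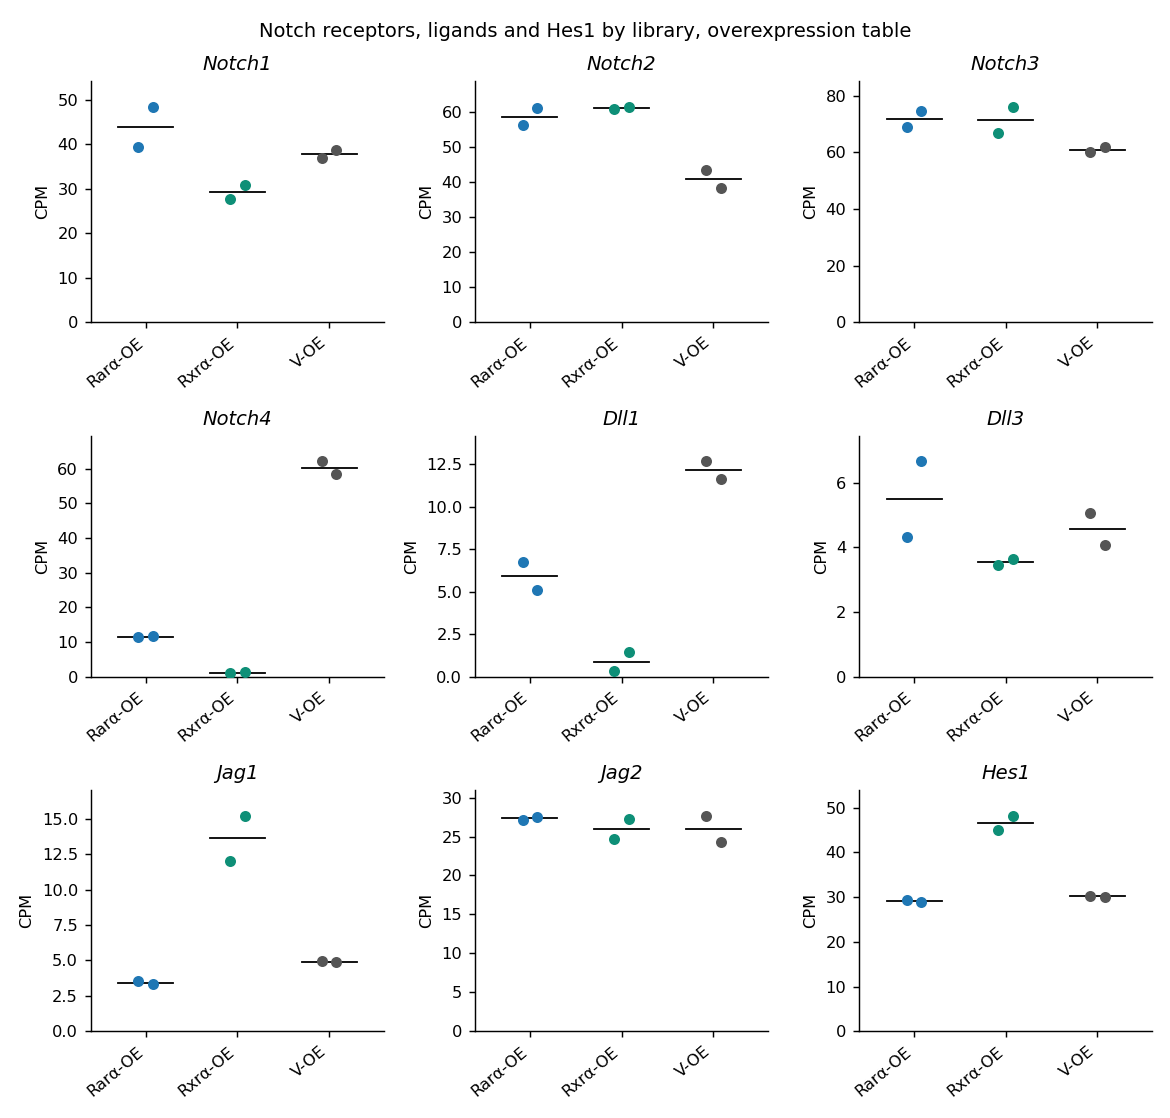
Levels of the 9 tested Notch genes in the overexpression table (CPM, axes from 0). Points are libraries and lines are group means (n = 2). Notch4 and Dll1 sit below V-OE in both lines, while Jag1 and Hes1 sit above it in Rxrα-OE.

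The ligand Jag1 and the target Hes1 were higher in Rxrα-OE than in both V-OE and Rarα-OE. Jag1, the Jagged ligand mutated in Alagille syndrome in humans, had 3.52 and 3.33 CPM in Rarα-OE and 12.0 and 15.2 CPM in Rxrα-OE, against 4.95 and 4.89 CPM in V-OE. Both Rxrα-OE libraries lay above the controls and both Rarα-OE libraries below them. It rose in Rxrα-OE by a log2 fold change of 1.48 ± 0.20 (adjusted p = 1.04e-08, edgeR), whereas -0.52 in Rarα-OE did not pass (adjusted p = 0.131). The lines differed by 2.00 ± 0.22 (adjusted p = 2.86e-11). Hes1 had 29.3 and 28.8 CPM in Rarα-OE and 45.0 and 48.2 CPM in Rxrα-OE, against 30.3 and 30.1 CPM in V-OE. It was higher in Rxrα-OE by 0.63 ± 0.09 over V-OE (adjusted p = 8.85e-08) and by 0.68 ± 0.10 over Rarα-OE (adjusted p = 2.75e-08). Jag2 overlapped its controls, at 27.1 and 27.6 CPM in Rarα-OE and 24.6 and 27.3 CPM in Rxrα-OE, against 27.7 and 24.3 CPM in V-OE. Dll3, a divergent Delta protein that acts inside the cell during somite formation, had 4.32 and 6.66 CPM in Rarα-OE and 3.47 and 3.63 CPM in Rxrα-OE, against 5.07 and 4.08 CPM in V-OE. Hes5 had no count in Rarα-OE and 1 count in Rxrα-OE, against 1 count in V-OE.

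Among the other receptors, Notch2 and Notch3 were higher in both lines and Notch1 was lower in Rxrα-OE. Notch2, a receptor expressed in many tissues, had 56.2 and 61.0 CPM in Rarα-OE and 60.8 and 61.5 CPM in Rxrα-OE, against 43.5 and 38.2 CPM in V-OE. The log2 fold changes were 0.52 ± 0.08 (adjusted p = 1.99e-06, edgeR) and 0.59 ± 0.08 (adjusted p = 1.99e-08), with no overlap. Notch3 had 69.1 and 74.6 CPM in Rarα-OE and 66.7 and 76.1 CPM in Rxrα-OE, against 60.0 and 61.8 CPM in V-OE. Its log2 fold change was 0.23 ± 0.08 in each (adjusted p = 0.0175 and 0.00685). DESeq2 did not call either (adjusted p = 0.196 and 0.116), and the Rarα-OE call was lost without V-OE replicate 1 (adjusted p = 0.0967) or Rarα-OE replicate 2 (adjusted p = 0.152), the Rxrα-OE call without Rxrα-OE replicate 2 (log2 fold change 0.13, adjusted p = 0.252). Its antisense neighbour Gm17276, described below, had 58 to 75 counts in Rarα-OE and 78 to 112 in Rxrα-OE, against 50 to 69 in V-OE. Notch1, the receptor most studied in lineage choice, fell in Rxrα-OE to 27.6 and 30.9 CPM, against 36.8 and 38.6 CPM in V-OE. The log2 fold change was -0.36 ± 0.10 (adjusted p = 0.00194, edgeR), which DESeq2 put at an adjusted p of 0.0528. Rarα-OE had 39.4 and 48.4 CPM, and Rxrα-OE lay below it by -0.57 ± 0.10 (adjusted p = 3.99e-06). Exons of Notch1, Notch2 and Hes5 also overlap other annotated genes, of which 0610009E02Rik, opposite Notch1 over 1068 bases, had 47 to 70 counts in Rarα-OE and 52 to 55 in Rxrα-OE, against 39 to 54 in V-OE.

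In all, 4 of the 9 tested genes passed in Rarα-OE against V-OE, 2 higher and 2 lower, where 28.6% of all genes tested passed (14.7% higher and 13.9% lower). In Rxrα-OE against V-OE 7 passed, 4 higher and 3 lower, beside 60.2% of all genes (30.9% higher and 29.3% lower), so the number by itself says little about these genes. Between the lines 5 passed, 2 higher and 3 lower in Rxrα-OE, beside 47.2% of all genes (23.8% higher and 23.4% lower). The median log2 fold change of the 9 genes was 0.08, 0.01 and -0.07 in these comparisons, against 0.0032, 0.0041 and -0.0027 over all genes tested. Both comparisons with V-OE share its libraries.

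Of 42 further pathway genes, 35 were tested in this table. The ones named here and below were narrowed, after their values were seen, to those among the largest changes whose call held with any 1 library left out, Pofut1, and Rbpj, Kat2b and Mfng among those that fell. In Rarα-OE 7 rose and 5 fell, and in Rxrα-OE 17 rose and 10 fell, with median log2 fold changes of 0.03 and 0.28. The counts by role stand beside 14.7% higher and 13.9% lower of all genes in Rarα-OE, and 30.9% higher and 29.3% lower in Rxrα-OE, and no test compared them. Of the 8 genes for receptor cleavage, 2 rose in Rarα-OE and 6 rose in Rxrα-OE, and none fell. Of the 7 genes of the nuclear complex, 2 rose and 3 fell in Rarα-OE, and 4 rose and 3 fell in Rxrα-OE. Of the 5 for receptor glycosylation, 1 rose in Rarα-OE, and 1 rose and 3 fell in Rxrα-OE. Of the 11 for endocytosis and turnover, 2 rose and 2 fell in Rarα-OE, and 5 rose and 4 fell in Rxrα-OE. Of 7 other targets of the Hes and Hey families and Nrarp, 3 were tested, Hes6, Hey1 and Nrarp, and none passed in either line. Psen2, a catalytic subunit of gamma-secretase, had 32.2 and 36.6 CPM in Rxrα-OE, against 7.49 and 6.53 CPM in V-OE, a log2 fold change of 2.30 ± 0.16 (adjusted p = 8.89e-19, edgeR). Psen2 was also higher in Rxrα-OE than in Rarα-OE, by 1.93 on the log2 scale. Dlk2, a Delta-like protein without the domain that binds the receptor, had 15 and 8 counts in Rarα-OE and 191 and 266 counts in Rxrα-OE, against 6 and 5 counts in V-OE. Maml2, a co-activator counted above in the nuclear complex, had 2 and 2 counts in Rarα-OE and 20 and 21 counts in Rxrα-OE, against 3 and 2 counts in V-OE. Both passed the filter on low counts only through Rxrα-OE, where they were high, so their values are a description and no test is given. Neurl1b, a ubiquitin ligase of the Neuralized family that acts on ligands, had 13.1 and 12.8 CPM in Rarα-OE and 26.1 and 20.7 CPM in Rxrα-OE, against 4.95 and 5.20 CPM in V-OE (Rarα-OE against V-OE, log2 fold change 1.35 ± 0.19, adjusted p = 9.87e-08).

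Among the pathway genes that fell was Rbpj, which encodes the DNA-binding protein of the nuclear complex. It had 547 and 521 CPM in Rarα-OE and 237 and 240 CPM in Rxrα-OE, against 632 and 635 CPM in V-OE, with no overlap between groups. Its log2 fold change was -0.25 ± 0.04 in Rarα-OE (adjusted p = 2.22e-06, edgeR) and -1.41 ± 0.04 in Rxrα-OE (adjusted p = 8.08e-35). Kat2b, a histone acetyltransferase that acts as a co-activator, had 64.5 and 67.3 CPM in Rarα-OE and 27.1 and 31.0 CPM in Rxrα-OE, against 93.2 and 93.2 CPM in V-OE, log2 fold changes of -0.50 ± 0.07 (adjusted p = 2.10e-07) and -1.67 ± 0.08 (adjusted p = 3.11e-25). Mfng, a Fringe glycosyltransferase that modifies Notch receptors, fell in Rxrα-OE to 1.97 and 1.86 CPM, against 7.49 and 7.34 CPM in V-OE, by a log2 fold change of -1.95 ± 0.28 (adjusted p = 3.47e-08), and overlapped V-OE in Rarα-OE at 8.04 and 5.25 CPM. In the knockout table Rbpj had 520 and 458 CPM in Rarα-KO, 575 and 480 CPM in Rxrα-KO and 535 and 532 CPM in RARX-DKO, against 380 and 353 CPM in WT (RARX), and although all 6 mutant libraries lay above the wild type it passed in none of the 3 comparisons with WT (RARX) (adjusted p = 0.231, 0.0639 and 0.0600).

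**Figure D3:**
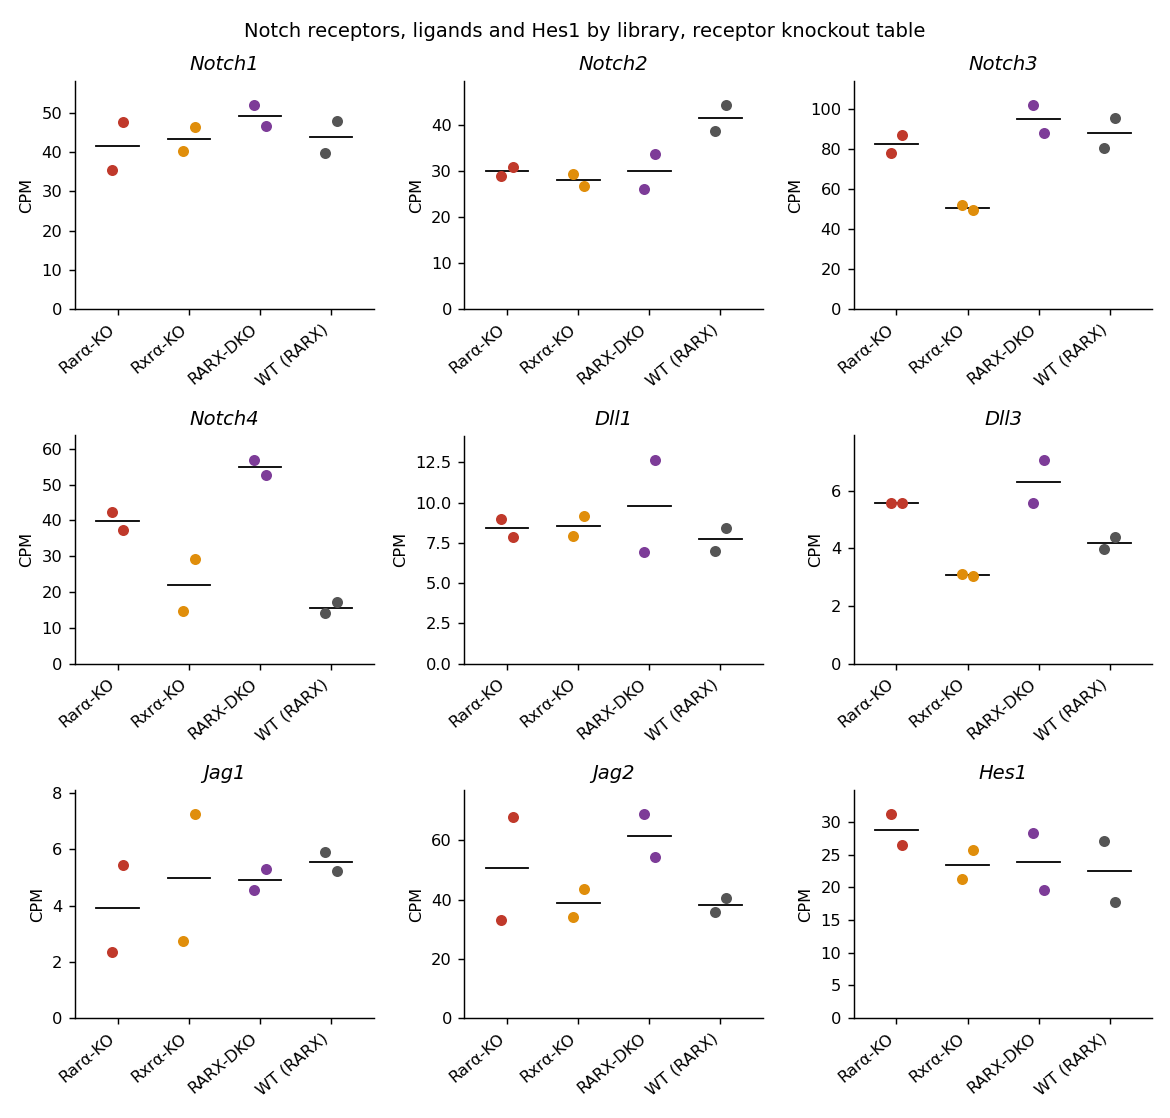
Levels of the 9 tested Notch genes in the receptor knockout table (CPM, axes from 0). Points are libraries and lines are group means (n = 2). Notch4 is raised in Rarα-KO and RARX-DKO and Notch3 is low in Rxrα-KO.

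Each comparison of a receptor mutant with WT (RARX) called 1 of the 9 genes. This was Notch4, higher, in Rarα-KO, where 0.645% of all genes passed (0.389% higher and 0.255% lower). It was Notch3, lower, in Rxrα-KO, where 2.47% passed (1.28% higher and 1.20% lower). In RARX-DKO it was Notch4, higher, where 2.24% passed (1.05% higher and 1.19% lower). Notch3, a receptor known from vascular smooth muscle, lies on the minus strand (chr17:32120820-32166852). It had 78.3 and 87.3 CPM in Rarα-KO, 52.1 and 49.6 CPM in Rxrα-KO and 102 and 88.2 CPM in RARX-DKO, against 80.8 and 95.6 CPM in WT (RARX). Both Rxrα-KO libraries lay below the other 6, while Rarα-KO and RARX-DKO each overlapped the wild type. In Rxrα-KO it fell against WT (RARX) by a log2 fold change of -0.80 ± 0.15 (adjusted p = 0.0166, edgeR). That call was lost without WT (RARX) replicate 1 or 2 or Rxrα-KO replicate 2, at log2 fold changes of -0.91, -0.67 and -0.75. Such fits leave 1 library in a group, and these called fewer of all genes too. Notch3 was lower in Rxrα-KO than in Rarα-KO by -0.70 ± 0.15 (adjusted p = 0.0180, edgeR). This was lost without Rarα-KO replicate 2 or without Rxrα-KO replicate 2. Notch3 was higher in RARX-DKO than in Rxrα-KO by 0.91 ± 0.15 (adjusted p = 0.00746, edgeR). This was lost without Rxrα-KO replicate 2, and with these 2 groups alone (adjusted p = 0.0666). The antisense gene Gm17276 shares 488 of the 8089 exonic bases of Notch3. It had 93 to 101 counts in Rarα-KO, against 114 to 151 in WT (RARX). Rxrα-KO had 39 to 51 and RARX-DKO 63 to 88. Reads from the shared bases cannot be told apart without strand information.

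The remaining genes of the knockout table did not pass. Notch2 lay below the wild type in all 6 mutant libraries, with 29.0 and 31.0 CPM in Rarα-KO, 29.4 and 26.7 CPM in Rxrα-KO and 26.2 and 33.7 CPM in RARX-DKO, against 38.8 and 44.3 CPM in WT (RARX). Its log2 fold changes of -0.47, -0.57 and -0.47 had adjusted p-values of 0.321, 0.123 and 0.222. Jag2, the Jagged ligand required for limb and craniofacial development in mice, had 33.1 and 68.0 CPM in Rarα-KO, 34.0 and 43.5 CPM in Rxrα-KO and 68.7 and 54.4 CPM in RARX-DKO, against 35.7 and 40.6 CPM in WT (RARX). Its 0.69 ± 0.29 in RARX-DKO did not pass (adjusted p = 0.302), and passed only when low counts were not filtered (adjusted p = 0.00600). Notch1 had 35.4 to 51.9 CPM over the 6 mutant libraries, against 39.9 and 48.0 CPM in WT (RARX). Hes1 overlapped likewise, at 19.6 to 31.1 CPM in mutants, against 22.4 ± 6.49 CPM (SD, n = 2) in WT (RARX). Jag1 was low and variable, from 2.35 to 7.24 CPM in mutants, against 5.90 and 5.22 CPM in WT (RARX), and the 123 other tested genes within 10 Mb of it had median log2 fold changes of -0.41, -0.45 and -0.39 in Rarα-KO, Rxrα-KO and RARX-DKO. The 104 tested genes around Jag2 had medians of 0.07, -0.36 and 0.06 in the same order and 0.40 in RARX-DKO against Rxrα-KO, and the 151 around Hes1 had -0.02, 0.24, -0.09 and -0.33. The genes around Notch3 and Notch4 had no such shift, with medians between -0.04 and 0.04 in all comparisons. Dll3 had 5.56 and 5.57 CPM in Rarα-KO, 3.12 and 3.05 CPM in Rxrα-KO and 5.57 and 7.07 CPM in RARX-DKO, against 3.96 and 4.38 CPM in WT (RARX), and RARX-DKO exceeded Rxrα-KO by 1.03 ± 0.34 without passing (adjusted p = 0.122). Hes5 had 1 and 5 counts in Rarα-KO, none in Rxrα-KO and 2 and 2 in RARX-DKO, against 0 and 1 in WT (RARX).

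Between mutants, Notch3 alone passed, lower, in Rxrα-KO against Rarα-KO, beside 5.38% of all genes (2.19% higher and 3.19% lower). In RARX-DKO against Rxrα-KO 2 passed, both higher, beside 3.50% of all genes (2.01% higher and 1.48% lower). In RARX-DKO against Rarα-KO 0 passed, beside 0.0122% of all genes, all of them lower. In the last comparison no gene of the 9 had an unadjusted p under 0.05 in edgeR, and DESeq2 called 0. Of the 42 further pathway genes 32 were tested in this table, and 0 passed in Rarα-KO against WT (RARX), where 6 had an unadjusted p under 0.05 in edgeR and DESeq2 called 0. In Rxrα-KO and in RARX-DKO 1 passed, beside 2.47% and 2.24% of all genes, and it was Pofut1, which adds the fucose that Notch receptors need. The Rxrα-KO count was 2 with DESeq2 and with 2 groups alone, and 3 without the filter. The RARX-DKO count was 2 with library totals only, 3 with DESeq2, 4 without the filter and 0 with the replicate block. Pofut1 had 48.7 and 35.6 CPM in Rxrα-KO and 45.4 and 42.7 CPM in RARX-DKO, against 69.5 and 80.3 CPM in WT (RARX). Its log2 fold changes were -0.83 ± 0.17 (adjusted p = 0.0221, edgeR) and -0.77 ± 0.17 (adjusted p = 0.0340). The Rxrα-KO call was lost without WT (RARX) replicate 1 or 2 or Rxrα-KO replicate 2. The RARX-DKO call was lost without any 1 of its 4 libraries, and with the replicate number as a block (adjusted p = 0.0515). Fits without a library leave 1 library in its group. Over all alternatives the log2 fold changes ran from -1.07 to -0.61 in Rxrα-KO and from -0.85 to -0.65 in RARX-DKO. In the overexpression table Pofut1 had 50.7 and 53.9 CPM in Rarα-OE and 65.1 and 70.7 CPM in Rxrα-OE, against 39.3 and 44.0 CPM in V-OE.

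**Figure D4:**
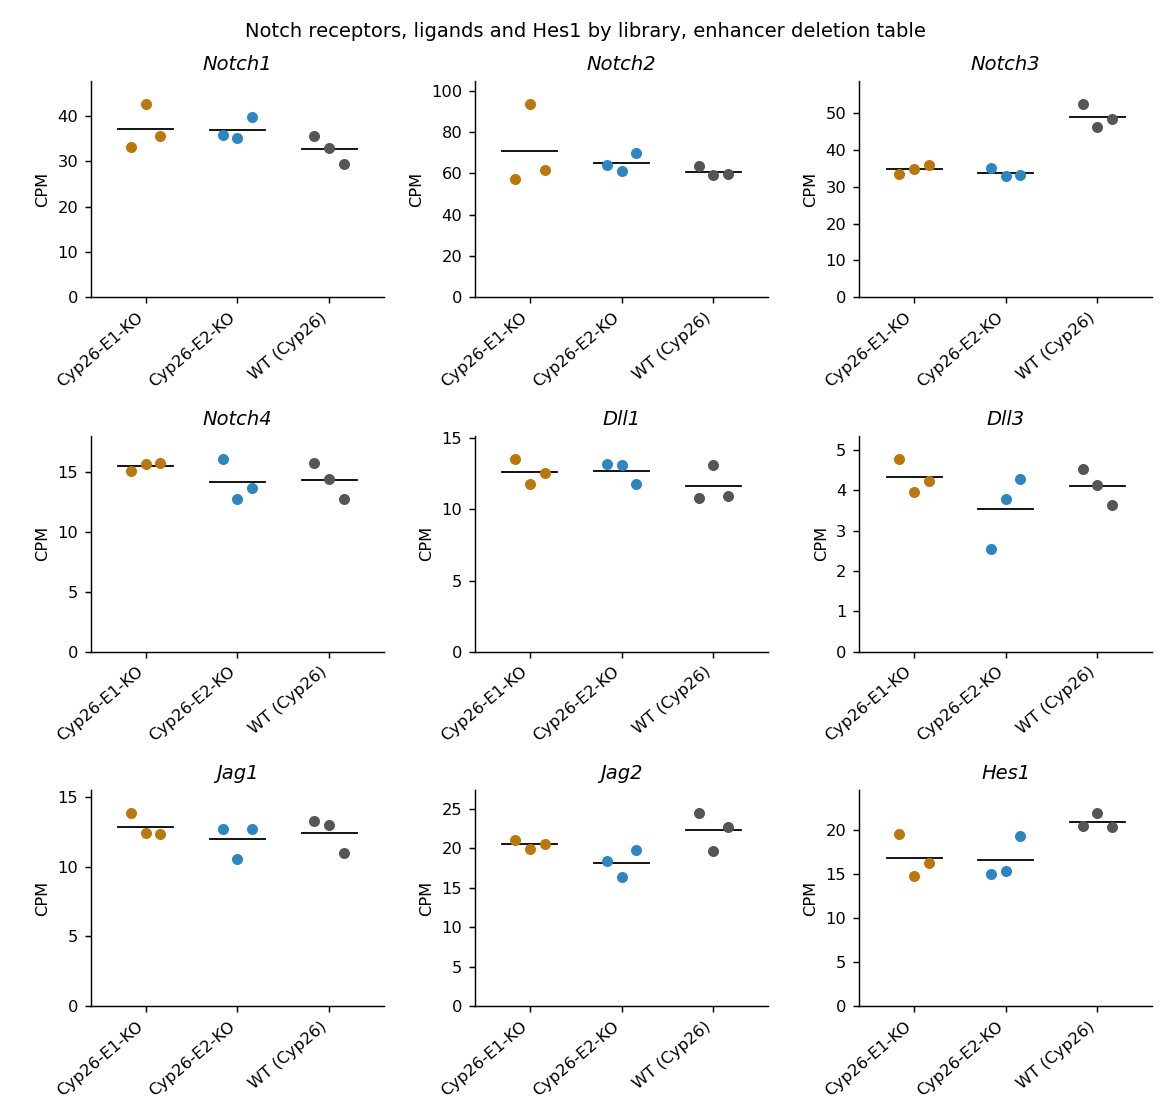
Levels of the 9 tested Notch genes in the enhancer table (CPM, axes from 0). Points are libraries and lines are group means (n = 3). Notch3 is below WT (Cyp26) in all 6 mutant libraries, and Cyp26-E1-KO replicate 2 is high for Notch2 at 93.4 CPM.

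Notch3 was lower in the libraries of both enhancer deletions. It had 33.5, 34.9 and 35.9 CPM in Cyp26-E1-KO and 35.1, 32.9 and 33.1 CPM in Cyp26-E2-KO, against 52.5, 46.2 and 48.4 CPM in WT (Cyp26). All 6 mutant libraries lay below the 3 controls. The log2 fold changes were -0.50 ± 0.08 (adjusted p = 3.28e-04, edgeR) and -0.54 ± 0.08 (adjusted p = 2.82e-04), from comparisons that share the controls, and they passed under every alternative run, with ranges of -0.53 to -0.44 and -0.57 to -0.49. Without the Cyp26-E1-KO library that stood apart the first was -0.50 (adjusted p = 5.84e-06). Gm17276, its antisense partner, had 1 to 9 counts in Cyp26-E1-KO and 2 to 20 in Cyp26-E2-KO, against 10 to 14 in WT (Cyp26), where Notch3 itself had at least 988 counts in every library of the table.

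Notch3 was the only one of the 9 genes to pass in Cyp26-E1-KO, where 25.3% of all genes passed (13.1% higher and 12.1% lower), and in Cyp26-E2-KO, where 17.5% passed (9.28% higher and 8.20% lower). In Cyp26-E2-KO against Cyp26-E1-KO 0 passed, beside 4.49% of all genes (2.02% higher and 2.46% lower), with none at an unadjusted p under 0.05 in edgeR and 0 called by DESeq2. Hes1 had 19.5, 14.8 and 16.2 CPM in Cyp26-E1-KO and 15.0, 15.4 and 19.4 CPM in Cyp26-E2-KO, against 20.4, 21.9 and 20.3 CPM in WT (Cyp26). Every mutant library lay below every control, but the log2 fold changes of -0.31 and -0.33 missed the threshold (adjusted p = 0.0898 and 0.0890, edgeR). They passed without Cyp26-E1-KO replicate 1 (-0.43, adjusted p = 0.0299) and without Cyp26-E2-KO replicate 3 (-0.46, adjusted p = 0.0441), the highest library of each mutant. The 175 tested genes within 10 Mb of Hes1 had a median log2 fold change of 0.33 in both deletions, opposite in sign to that of Hes1. Jag2 had 21.1, 20.0 and 20.6 CPM in Cyp26-E1-KO and 18.4, 16.4 and 19.7 CPM in Cyp26-E2-KO, against 24.5, 19.7 and 22.8 CPM in WT (Cyp26), and the log2 fold change in Cyp26-E2-KO was -0.30 (adjusted p = 0.0728). The 122 tested genes within 10 Mb of Jag2 had median log2 fold changes of -0.63 in Cyp26-E1-KO and -0.48 in Cyp26-E2-KO, so Jag2 lay above its neighbours' median in Cyp26-E2-KO. With the Cyp26-E2-KO and WT (Cyp26) libraries fitted alone, Hes1 (adjusted p = 0.0143) and Jag2 (adjusted p = 0.0233) passed there.

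The other genes overlapped their controls in this table. Notch2 had 57.4, 93.4 and 61.5 CPM in Cyp26-E1-KO and 64.2, 61.3 and 69.6 CPM in Cyp26-E2-KO, against 63.4, 58.9 and 59.7 CPM in WT (Cyp26), and the high Cyp26-E1-KO library is the one that stood apart. Notch1 had 33.2 to 42.6 CPM in Cyp26-E1-KO and 35.3 to 39.8 CPM in Cyp26-E2-KO, against 29.4 to 35.6 CPM in WT (Cyp26). Jag1 had 12.4 to 13.8 CPM in Cyp26-E1-KO and 10.5 to 12.7 CPM in Cyp26-E2-KO, against 10.9 to 13.3 CPM in WT (Cyp26). The 147 tested genes around Jag1 had a median log2 fold change of -0.28 in each deletion. Dll3 had 3.95 to 4.78 CPM in Cyp26-E1-KO and 2.55 to 4.27 CPM in Cyp26-E2-KO, against 3.64 to 4.54 CPM in WT (Cyp26). Hes5 had no count in the 6 mutant libraries and 0, 2 and 0 counts in WT (Cyp26). Of the further pathway genes 39 were tested, of which 5 rose and 3 fell in Cyp26-E1-KO and 1 rose and 4 fell in Cyp26-E2-KO, beside 25.3% and 17.5% of all genes, so these counts say nothing particular about the pathway. The total of 8 in Cyp26-E1-KO became 4 without WT (Cyp26) replicate 1, 5 without WT (Cyp26) replicate 3 and 14 without Cyp26-E1-KO replicate 2. The total of 5 in Cyp26-E2-KO became 1 without any 1 of the WT (Cyp26) libraries or without Cyp26-E2-KO replicate 2 or 3, and 3 without Cyp26-E2-KO replicate 1, and it was 3 without the filter on low counts and 9 with these 2 groups alone. Pofut1 was among those that fell in both, with 37.5, 40.6 and 35.6 CPM in Cyp26-E1-KO and 38.7, 34.6 and 39.3 CPM in Cyp26-E2-KO, against 55.0, 56.4 and 58.5 CPM in WT (Cyp26). Its log2 fold changes were -0.58 ± 0.08 (adjusted p = 1.13e-04) and -0.59 ± 0.08 (adjusted p = 1.56e-04). The mesoderm and primitive streak markers summed to 52.9 to 56.0 CPM in Cyp26-E1-KO and 46.7 to 51.4 CPM in Cyp26-E2-KO, against 25.2 to 28.8 CPM in WT (Cyp26), with Msgn1 at 0 in all 9 libraries. Of the 5 tested, Eomes and Hand1 rose in both deletions, Eomes to 40.4 ± 2.45 CPM in Cyp26-E1-KO and 38.7 ± 1.46 CPM in Cyp26-E2-KO, against 21.6 ± 1.68 CPM in WT (Cyp26) (SD, n = 3). The extraembryonic endoderm markers summed to 606 to 651 CPM in Cyp26-E1-KO and 682 to 705 CPM in Cyp26-E2-KO, against 515 to 552 CPM in WT (Cyp26). Of these 8, 3 rose and 2 fell in Cyp26-E1-KO, and 6 rose and none fell in Cyp26-E2-KO. The ESC markers summed to 2310 to 3187 CPM and 2740 to 2901 CPM in these deletions, against 3216 to 3321 CPM. Of these 8, 2 rose and 3 fell in Cyp26-E1-KO, and 3 fell and none rose in Cyp26-E2-KO. The endothelial markers summed to 110 to 116 CPM in Cyp26-E1-KO and 119 to 126 CPM in Cyp26-E2-KO, against 113 to 120 CPM in WT (Cyp26). Of the 7 tested, 4 rose and 2 fell in Cyp26-E1-KO, and 2 rose and none fell in Cyp26-E2-KO. The neural progenitor markers summed to 82.9 to 87.3 CPM in Cyp26-E1-KO and 66.3 to 74.0 CPM in Cyp26-E2-KO. WT (Cyp26) had 77.2 to 78.1 CPM. Of the 6 tested, 2 rose and 1 fell in Cyp26-E1-KO, and 1 fell in Cyp26-E2-KO. The fibroblast markers summed to 21.3 to 22.4 CPM in Cyp26-E1-KO and 22.1 to 25.2 CPM in Cyp26-E2-KO. WT (Cyp26) had 28.2 to 29.1 CPM. Of the 4 tested, 1 fell in each deletion. The part of these marker lists in these results was not tested.

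**Figure D5:**
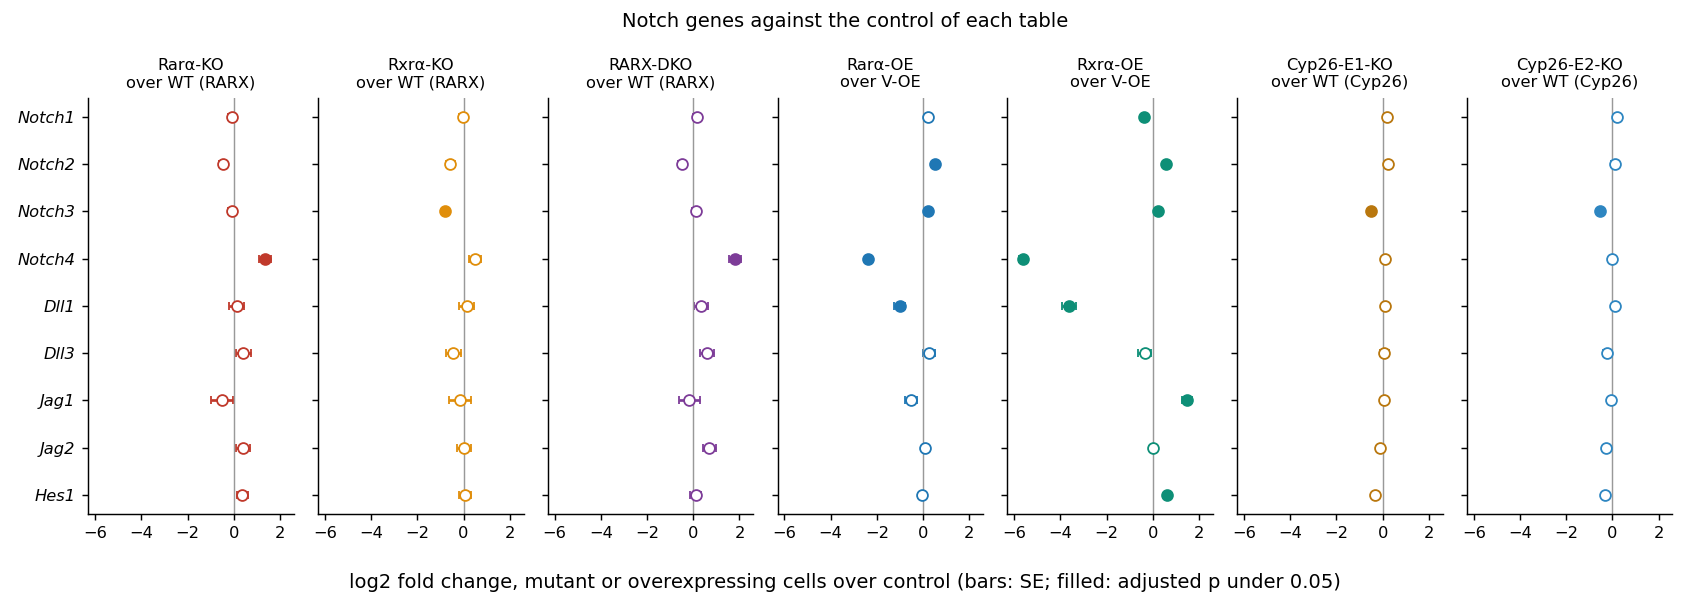
Log2 fold change of each tested Notch gene against the control of its table, with bars for 1 SE and filled points at an adjusted p under 0.05 (edgeR). Notch4 spans -5.61 in Rxrα-OE to 1.81 in RARX-DKO.

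Set beside each other, the 7 comparisons with a control, by edgeR, called Notch4 in 4, lower in both overexpressing lines and higher in Rarα-KO and RARX-DKO, and Notch3 in 5, lower in Rxrα-KO and both enhancer deletions and higher in both overexpressing lines. Notch2 and Dll1 passed only in the 2 comparisons with V-OE, and Notch1, Jag1 and Hes1 only in Rxrα-OE against V-OE. Dll3 and Jag2 passed in none of the 7. DESeq2 called Notch3 in neither overexpressing line, and the receptor mutant calls were lost in some fits without 1 library. Mean Notch4 was 60.3 CPM in V-OE, 15.7 CPM in WT (RARX) and 14.3 CPM in WT (Cyp26). Its changes were thus measured from unlike control levels. Whether an effect differed between tables was not tested, because the tables do not share controls.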

How the data were processed

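RNA-seq gene counts of 23 libraries of E14 mouse embryonic stem cells were used, out of 75 samples; the 4C-seq and ChIP-seq samples were not analysed here. The authors deposited raw read counts per gene in 3 tables. Per the submitters' processing notes, which give tools without their role or order, the build was mm10 and the tools included HTSeq 0.9.1 and HISAT2 2.1.0; the strand setting of the counting is not given in the sources used here. In the enhancer table the column codes were matched by name to the enhancer deletions, which leaves that match unsure, and the titles of the Cyp26-E2-KO samples omit KO, which the series design gives.

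Each table was fitted whole in edgeR 4.0.16 (R 4.3.3) after filterByExpr (minimum count 10) and TMM scaling, by the robust quasi-likelihood F test and Benjamini-Hochberg adjustment over the 16445 (knockout), 16914 (overexpression) and 18768 (enhancer) genes tested, with a threshold of 0.05. CPM use TMM-scaled library sizes, and a fold change is given on the log2 scale with SE taken as its size over the square root of F. Alternatives were other scalings, no filter, DESeq2 1.42.0, 2 groups alone, a replicate block and each library left out; median changes of the genes within 10 Mb are given beside some results. Floors of 3 counts cover counting error only. Gene positions and exon overlaps came from GENCODE annotation of GRCm38, and promoter windows from RefSeq. The test was tried on simulated data first. The rule named all 10 Notch genes, the label checks and at most 3 further pathway genes per comparison, those with the largest change past the threshold. It was departed from after the values were seen. Calls lost with 1 library left out were not named, except those of Pofut1 in Rxrα-KO and RARX-DKO. Rbpj, Kat2b and Mfng were added. The members and lists were chosen with earlier results of these data known.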

Additional observations from a re-analysis of the deposited data

How the results depend on the processing

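The number of Notch genes past the threshold changed by over 1.5 times in 4 of the 12 comparisons under settings other than leaving out a library. It was 2 without the filter in RARX-DKO against WT (RARX); 2 with library totals only, 2 with DESeq2 and 2 without the filter in Rxrα-KO against Rarα-KO; 0 with 2 groups alone in RARX-DKO against Rxrα-KO; and 3 with 2 groups alone in Cyp26-E2-KO against WT (Cyp26). With 1 library left out it ran from 0 to 0 in Rarα-KO, 0 to 2 in Rxrα-KO and 0 to 1 in RARX-DKO, each against WT (RARX). It ran from 0 to 1 in Rxrα-KO against Rarα-KO, 1 to 2 in RARX-DKO against Rxrα-KO, and 1 to 2 in each enhancer deletion against WT (Cyp26). Among the 39 Notch results printed as a fold change, 1 turned round, Notch4 in Rxrα-KO against WT (RARX), which ranged from -0.082 (without Rxrα-KO replicate 2) to 0.91. The cause of these changes was not tested. Notch4 and Dll1 in both overexpressing lines, and Notch3 in both enhancer deletions, kept direction and call in all alternatives run. With the replicate number as a block the count of Notch genes was the same in all 12 comparisons, for instance 7 in Rxrα-OE against V-OE. Over all genes the block gave 314 calls in place of 407 in Rxrα-KO against WT (RARX). Same-numbered libraries deviated with correlations of -0.21 to 0.12, -0.014 to 0.0066 and -0.056 to 0.107 in the 3 tables. These values cannot tell whether a number marks a shared culture or day, which the labels do not say. Over all genes the calls in Rarα-KO, Rxrα-KO and RARX-DKO against WT (RARX) numbered 106, 407 and 368, with ranges of 8 to 588, 21 to 1084 and 32 to 981. Rxrα-KO against Rarα-KO had 885 (111 to 1840), RARX-DKO against Rarα-KO 2 (0 to 58) and RARX-DKO against Rxrα-KO 575 (30 to 1366). Rarα-OE against V-OE had 4829 (2416 to 4897), Rxrα-OE against V-OE 10178 (7410 to 10260) and Rxrα-OE against Rarα-OE 7979 (5008 to 8053). In Rxrα-OE against V-OE DESeq2 called 7410 of 19708 genes, Notch2, Notch4, Dll1, Jag1 and Hes1 among them. Cyp26-E1-KO, Cyp26-E2-KO and their contrast had 4741, 3280 and 842 (3413 to 6217, 1978 to 5731 and 310 to 1852). Scaling by library totals put the share of higher calls at 25.8% in place of 40.7% in Rxrα-KO against Rarα-KO, where the median of all genes shifted by -0.11. Likewise it gave 39.7% in place of 51.6% in Rxrα-KO against WT (RARX), 70.5% in place of 57.6% in RARX-DKO against Rxrα-KO and 60.2% in place of 45.1% in Cyp26-E2-KO against Cyp26-E1-KO. Hes5, at 0 to 5 counts per library, passed the filter in no table, so no change in it could be tested.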
